A study of Mus musculus with 2 samples.

Results

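The cell cycle genes described here are 46 genes whose transcripts mark successive phases of cell division, of 28625 gene symbols in the count matrices. They were taken by symbol from the gene lists of both matrices, and all 46 were found. By role they comprise 4 genes of early G1, 12 genes of origin licensing and firing, 5 genes of nucleotide supply, 6 genes of the replication fork and of new chromatin, 17 mitotic genes, and 2 genes of chromatin and microtubule proteins that cells outside division also use. The 23 genes of licensing, nucleotide supply and the fork are called replication genes below. Their transcripts were counted in single cells, isolated by protease digestion and captured in droplets, from the tibialis anterior, a muscle of the lower leg, of C57B/6 mice aged 12 weeks on standard chow. There were 2 libraries: injured muscle, taken 24 hours after 1.2% barium chloride (written BaCl in the labels) was injected into it, and uninjured control muscle. Barium chloride makes muscle fibres degenerate. Since the labels describe that injection for the control as well, it is uncertain whether the uninjured muscle received one. No deletion, transgene or sort is named for either group, and the number of animals behind each library is not given.

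A cell that leaves rest first makes D-type cyclins, which with their kinases inactivate the Rb family and free the E2F factors. E2F factors then switch on the genes that load the MCM helicase at origins, supply deoxynucleotides and build the fork, so these transcripts climb at the G1/S transition. Mitotic genes such as cyclin B, Cdc20 and the Aurora kinases are held off by the DREAM complex and switched on in G2 by B-Myb and FoxM1, through CHR and CCAAT elements. In skeletal muscle, fibro-adipogenic progenitors, endothelial cells and satellite cells rest in uninjured tissue and divide in the days after injury, while many monocytes and neutrophils of the infiltrate arrive as cells that were made in the bone marrow.

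In injured muscle 39014762 UMIs (unique molecular identifiers, each standing for a captured transcript) fell on 4489 barcodes, the median barcode having 7282 and the lowest 3333. In uninjured muscle 22994502 UMIs fell on 5581 barcodes, the median barcode having 3237 and the lowest 1843. After filtering, 4260 injured and 5136 uninjured cells were kept, and 31 barcodes occurred among the cells kept of both libraries. The libraries differed in sex-linked transcripts: Xist had 0 UMIs in the injured library and 16538 in the uninjured one, so sex cannot be told apart from injury. Cells were clustered without the cell cycle genes and named from marker genes. Comparisons were limited to the 5 classes that both libraries filled with 50 cells or more, namely fibro-adipogenic progenitor-like (FAP-like), tenocyte-like, endothelial-like, monocyte- and macrophage-like (macrophage-like below) and glial-like cells. All 12 FAP markers, 9 tenocyte markers, 11 endothelial markers, 14 macrophage markers and 10 glial markers were found in their own class in both libraries. The classes were named from these same markers, so this is no check of the names. All 14 macrophage markers were also found in injured FAP-like, tenocyte-like, endothelial-like and glial-like cells. Within a class the libraries mostly fell into different clusters: injured FAP-like cells were 402 of 422 in cluster 10, which held 11 uninjured cells, and uninjured FAP-like cells lay mostly in clusters 9, 15 and 24. Injured tenocyte-like cells lay mostly in cluster 19, injured endothelial-like cells mostly in cluster 12, and uninjured macrophage-like cells mostly in cluster 18. With 1 library per group no difference has a replicate check and no test of the conditions was possible. The intervals given, at 95%, reflect counting error alone. A gene with at least 20 UMIs over both libraries counts as measured, and as higher or lower when its CPM differed by 2-fold or more, a call of size and not of significance.

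The promoter windows of the replication and mitotic genes differed in how often they carried certain short motifs. Of the 46 members, 37 had a promoter window of 300 bases in RefSeq (GRCm38.p6), from 250 bases before to 50 after the annotated start, and the first window listed for each gene was used. The E2F-type motif was searched as TTTCCCGC, TTTCGCGC, TTTGCCGC or TTTGGCGC, the CHR-type motif as TTTGAA or TTCGAA, and the CCAAT element as CCAAT, each on both strands and counted also where matches overlap. The E2F-type motif was found in 6 of 20 replication windows and 1 of 14 mitotic windows, against 2.32% of the windows of all 27025 genes. The CHR-type motif was found in 4 of 20 replication windows and 11 of 14 mitotic windows, against 19.4% of all genes. CCAAT was found in 12 of 20 replication windows and 13 of 14 mitotic windows, against 37.9% of all genes. A match is a description of the sequence and not evidence that a factor binds there. The windows of Mcm5 and Mcm6, 2 helicase subunits with large differences in FAP-like cells, of Cdk1, the mitotic kinase and the mitotic member whose window holds both motif types, and of Ccnb2 and Cdc20, mitotic regulators whose windows hold only the CHR type, are shown 5' to 3' on the strand of the gene, with E2F-type and CHR-type matches in capitals.
Mcm5 (chr8:75109259-75109558, plus strand): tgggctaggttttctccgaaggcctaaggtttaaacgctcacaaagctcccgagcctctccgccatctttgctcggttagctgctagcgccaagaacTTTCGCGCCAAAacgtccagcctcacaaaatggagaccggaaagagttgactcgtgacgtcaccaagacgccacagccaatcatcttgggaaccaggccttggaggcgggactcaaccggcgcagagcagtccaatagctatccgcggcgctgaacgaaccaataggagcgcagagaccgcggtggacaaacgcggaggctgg
Mcm6 (chr1:128359656-128359955, minus strand): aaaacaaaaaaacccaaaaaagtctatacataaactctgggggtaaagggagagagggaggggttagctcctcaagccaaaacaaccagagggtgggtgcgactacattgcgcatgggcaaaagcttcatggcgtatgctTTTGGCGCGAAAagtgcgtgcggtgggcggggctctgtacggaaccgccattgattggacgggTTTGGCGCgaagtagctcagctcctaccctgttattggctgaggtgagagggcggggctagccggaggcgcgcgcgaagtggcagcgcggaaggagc
Cdk1 (chr10:69352863-69353162, minus strand): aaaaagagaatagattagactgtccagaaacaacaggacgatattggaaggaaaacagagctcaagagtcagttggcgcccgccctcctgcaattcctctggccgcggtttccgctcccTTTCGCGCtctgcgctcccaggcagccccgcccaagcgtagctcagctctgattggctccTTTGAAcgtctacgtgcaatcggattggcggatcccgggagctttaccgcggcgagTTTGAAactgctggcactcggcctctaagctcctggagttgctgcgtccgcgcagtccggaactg
Ccnb2 (chr9:70421505-70421804, minus strand): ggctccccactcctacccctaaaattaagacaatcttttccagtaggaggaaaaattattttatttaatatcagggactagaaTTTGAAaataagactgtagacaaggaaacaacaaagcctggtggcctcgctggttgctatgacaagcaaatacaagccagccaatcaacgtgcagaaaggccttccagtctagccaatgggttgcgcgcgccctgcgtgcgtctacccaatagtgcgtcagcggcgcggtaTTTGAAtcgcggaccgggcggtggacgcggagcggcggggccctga
Cdc20 (chr4:118437294-118437593, minus strand): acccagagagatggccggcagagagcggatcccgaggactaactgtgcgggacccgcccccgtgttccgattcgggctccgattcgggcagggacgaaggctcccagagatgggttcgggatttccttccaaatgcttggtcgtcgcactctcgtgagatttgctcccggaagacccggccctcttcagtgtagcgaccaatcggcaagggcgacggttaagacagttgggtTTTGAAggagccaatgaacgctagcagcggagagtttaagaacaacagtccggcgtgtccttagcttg

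In the Mcm5 window a pair of overlapping E2F-type matches on opposite strands began 153 and 149 bases before the start. Mcm6 held a pair of the same kind at 110 and 106 bases and another match at 47 bases before the start. Cdk1 held an E2F-type match 131 bases before the start and CHR-type matches at 71 and 15 bases. Ccnb2 held CHR-type matches 167 bases before and 5 bases after the start, and Cdc20 held 1 at 18 bases before it. The 6 replication genes with an E2F-type match, Cdc6, Cdt1, Mcm3, Mcm5, Mcm6 and Mcm7, were all genes of licensing. These exact letters were not found in the first windows of nucleotide supply or fork genes. Of the fork genes, Fen1 and Uhrf1 had 2 windows listed and Lig1 had 3, and their later windows were not read.

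FAP-like cells, the mesenchymal progenitors that support muscle repair, had the largest difference in replication genes of the 5 classes compared. Of 44 members measured, 31 were at least 2-fold higher and 3 at least 2-fold lower in injured than in uninjured FAP-like cells, where 14.5% of all genes measured were higher and 29.0% lower. The median log2 ratio of the members was 2.26, against -0.29 for all 11495 genes measured in this class, which places the members 2.55 above the median gene. The 23 replication genes summed to 1311 CPM (UMIs scaled to the UMI total of the class; interval 1283 to 1339) in injured and 226 CPM (211 to 242) in uninjured FAP-like cells, a 5.80-fold difference (5.39 to 6.24). The sum over 422 injured cells was 8673 UMIs of 6617463, and over 778 uninjured cells 799 of 3534488.

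**Figure D1:**
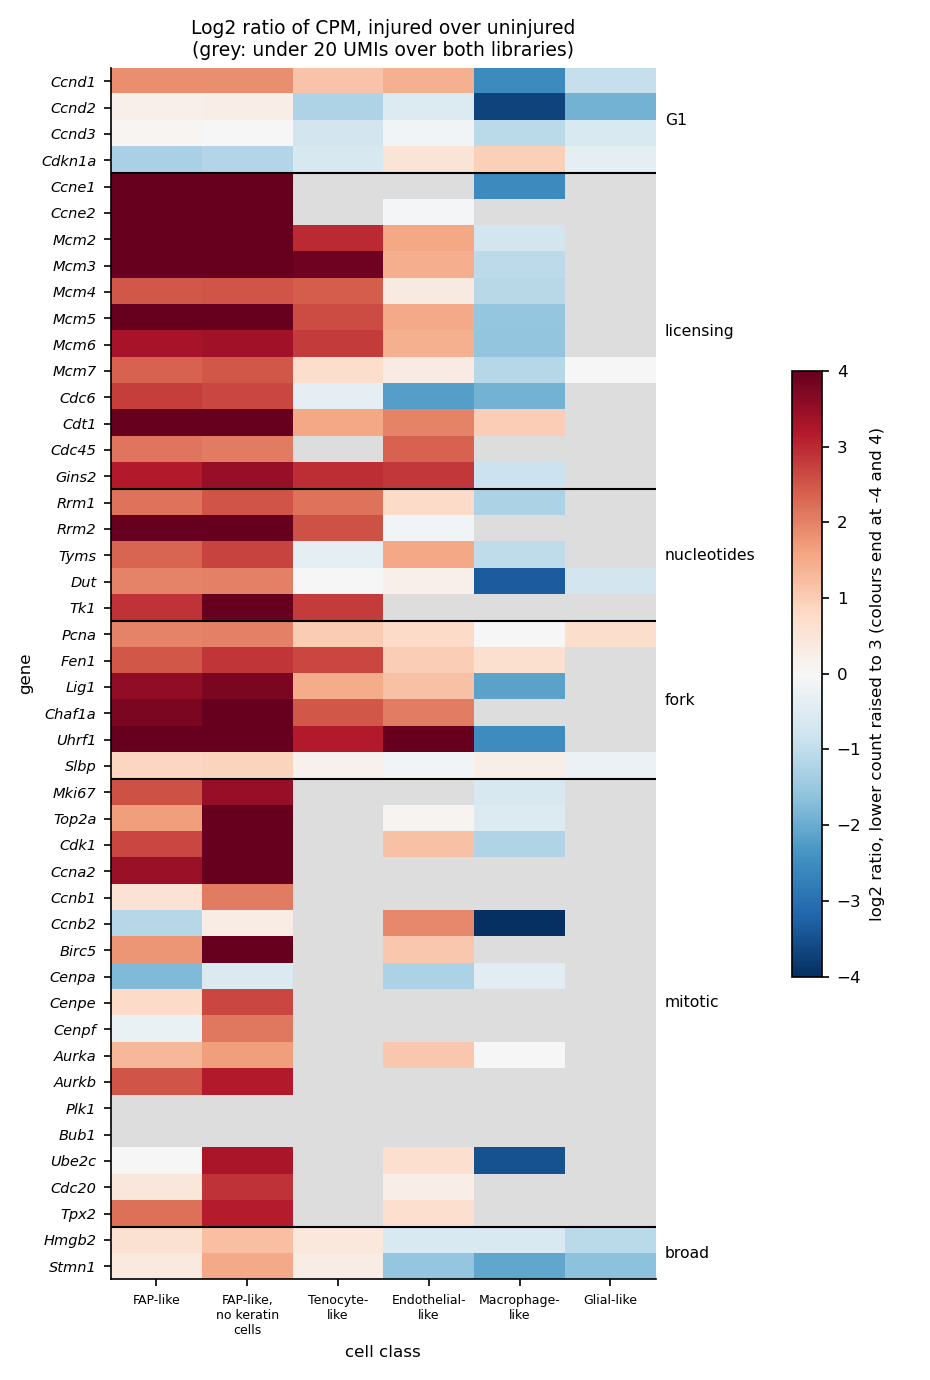
Log2 ratio of CPM, injured over uninjured, for the 46 cell cycle genes (rows, grouped by role) in 5 cell classes (columns); FAP-like cells are shown with and without 8 cells that held keratin transcripts. Red is higher and blue lower in the injured library, grey marks members under 20 UMIs over both libraries, and colours end at -4 and 4; all 12 licensing rows are red in FAP-like cells, and none of the 10 measured is called higher in macrophage-like cells.

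The licensing genes differed most among the replication genes of FAP-like cells. All 12 were measured and all 12 were at least 2-fold higher, with a median log2 ratio of 3.70. Mcm5, a subunit of the replicative helicase, had 493 UMIs or 74.5 CPM in injured FAP-like cells and 6 UMIs or 1.70 CPM in uninjured ones, a 43.9-fold difference (20.02 to 120.2). Mcm2, another subunit, had 58.0 CPM in injured and 1.70 CPM in uninjured FAP-like cells, 34.2-fold higher (15.6 to 93.7). Mcm6, the licensing gene with the most UMIs, had 105 CPM in injured and 10.8 CPM in uninjured cells, 9.77-fold higher (7.05 to 13.9). The remaining helicase genes lay between 5.17-fold for Mcm7 and 25.4-fold for Mcm3. Cyclin E, which drives the entry into S phase with Cdk2, had very few UMIs in uninjured FAP-like cells. Ccne1 had 175 UMIs in injured and 3 in uninjured cells (31.2-fold, 10.5 to 153), and Ccne2 had 154 and 2 UMIs (41.1-fold, 11.2 to 343). The loading factors Cdt1 and Cdc6 were 17.4-fold and 6.74-fold higher in injured cells. Gins2 and Cdc45, which complete the active helicase, were 9.03-fold and 4.43-fold higher.

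Nucleotide supply and the fork differed in the same direction with smaller ratios. Their sums were 4.83-fold (4.24 to 5.53) and 3.76-fold (3.37 to 4.21) higher in injured FAP-like cells, against 11.1-fold (9.61 to 13.0) for licensing. All 5 nucleotide genes were at least 2-fold higher. Rrm2, the S-phase subunit of ribonucleotide reductase, had 51.1 CPM in injured and 2.83 CPM in uninjured FAP-like cells (18.1-fold, 9.70 to 38.0), and thymidine kinase Tk1 had 18.7 CPM and 2.55 CPM (7.36-fold, 3.75 to 16.5). Dut, which clears dUTP, was the most abundant of them, with 190 CPM in injured and 48.1 CPM in uninjured cells (3.94-fold, 3.36 to 4.66). Of the 6 fork genes, 5 were at least 2-fold higher. Uhrf1, which guides maintenance methylation on new DNA, had 46.4 CPM in injured and 1.98 CPM in uninjured cells (23.4-fold, 11.2 to 58.8). Chaf1a, a histone chaperone at the fork, was 13.6-fold higher (6.12 to 37.7), and the sliding clamp Pcna had 122 CPM in injured and 30.6 CPM in uninjured cells (3.98-fold, 3.25 to 4.91). Slbp, which binds histone mRNA, was the exception, with 106 CPM in injured and 58.0 CPM in uninjured cells (1.83-fold, 1.57 to 2.15).

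The mitotic genes of FAP-like cells rested on few uninjured cells. They summed to 172 CPM (162 to 182) in injured and 71.3 CPM (62.8 to 80.7) in uninjured FAP-like cells, a 2.41-fold difference (2.104 to 2.78), but 83.3% of the uninjured mitotic UMIs came from 3 cells, against 15.2% in the injured class. The uninjured cell with most held 168 mitotic UMIs among 65643 and carried 884 Krt14, 798 Krt10 and 668 Lgals7 UMIs, transcripts of keratinocytes, with 3 Dcn UMIs and 0 of Pdgfra and Col1a1. The next held 36 mitotic UMIs with 23 Krt14 and 41 Lgals7 UMIs, 2 Dcn UMIs and again 0 of Pdgfra and Col1a1. In all, 8 of the 778 uninjured FAP-like cells had at least 10 UMIs of Krt5, Krt14, Krt10 and Lgals7 together, all 8 without a counterpart in the injured class (0 of 422). Without these 8 cells, a selection made after seeing the data, 44 mitotic UMIs or 13.1 CPM remained in uninjured FAP-like cells, and the injured level was 13.1-fold higher (9.71 to 18.2). Over all alternatives tried, the mitotic ratio lay between 1.53, in clusters holding both libraries, and 14.1, with each cell placed by its own marker score. The clusters holding both libraries included cluster 10, with 11 uninjured cells. The keratin-positive cells with 168 and 36 mitotic UMIs lay in that cluster, so the value of 1.53 includes them. Without the 8 keratin-positive cells the replication sum was 6.29-fold higher (5.82 to 6.80), and the calls were 38 higher and 1 lower of 44 members, where 15.2% of all genes were higher and 28.2% lower.

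With all cells, 8 of the 15 mitotic genes measured were at least 2-fold higher and 2 lower in injured FAP-like cells; without the keratin-positive cells, 13 were higher and none lower. Cdk1, the kinase that starts mitosis, had 180 UMIs in injured FAP-like cells against 15 in uninjured ones (6.41-fold, 3.78 to 11.7), and against 1 without the keratin-positive cells (91.2-fold, 16.2 to 3622). Ccna2, the cyclin of S phase and G2, had 143 UMIs in injured and 7 in uninjured cells (10.9-fold, 5.16 to 27.6), and 0 UMIs in uninjured cells without the keratin-positive ones, at least 24.2-fold higher with 3 UMIs over the class as the floor. Top2a, which untangles sister DNA, had 210 and 35 UMIs (3.21-fold, 2.23 to 4.73), and 3 uninjured UMIs without the keratin-positive cells (35.5-fold, 12.0 to 173). These 3 genes were higher in injured cells either way. Cdc20, which activates the ligase that ends mitosis, and Ube2c, which serves that ligase, depended on the 8 cells. Cdc20 had 44 UMIs in injured and 17 in uninjured FAP-like cells (1.38-fold, 0.774 to 2.58), and 3 uninjured UMIs without them (7.43-fold, 2.38 to 37.4). Ube2c had 57 and 30 UMIs (1.01-fold, 0.641 to 1.64), and 2 uninjured UMIs without them (14.4-fold, 3.82 to 122). The mitotic cyclin Ccnb2 and the centromeric histone Cenpa had few injured UMIs, 17 and 16. Ccnb2 was 2.20-fold lower (1.10 to 4.48) and Cenpa 3.39-fold lower (1.78 to 6.69) in injured cells, and without the keratin-positive cells their ratios were 1.23 (0.485 to 3.51) and 0.676 (0.300 to 1.57), within 2-fold. Plk1 and Bub1 stayed under 20 UMIs and were not called.

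Cell by cell, the replication genes were spread over many injured FAP-like cells and the mitotic genes over fewer. With every cell thinned to 1800 UMIs, 165 of 422 injured FAP-like cells (39.1%, 34.4 to 43.9) and 39 of 778 uninjured ones (5.01%, 3.59 to 6.79) held at least 2 distinct replication genes. At least 2 distinct mitotic genes were held by 20 injured (4.74%, 2.92 to 7.22) and 3 uninjured FAP-like cells (0.386%, 0.0796 to 1.12), and without the keratin-positive cells the uninjured share was 0.130%. Neutrophil-like cells, a type that is past division in tissue, here show the background of the injured library alone. The uninjured library held 0 of them. Injured neutrophil-like cells had 2.30% (0.280 to 8.06) for replication and 0 of 87 for mitotic genes, for which 3 cells of the total give a limit of 3.45%. The unthinned median was 13680 UMIs per cell in injured and 4002 in uninjured FAP-like cells, and 7306 in injured neutrophil-like cells. With all UMIs, 85.1% of injured and 18.8% of uninjured FAP-like cells held at least 2 replication genes, and 34.5% of neutrophil-like cells did, so shares with all UMIs follow depth as well and are given as description. Of the 20 injured FAP-like cells with at least 2 mitotic genes after thinning, 19 also held at least 2 replication genes. With all UMIs, 89 injured FAP-like cells held at least 2 mitotic genes, and all 89 held at least 2 replication genes, as did 85.1% of the whole injured class. Their median was 18 distinct replication genes, against 6 in the whole injured class, but these 89 cells were also deeper, with a median of 25830 UMIs against 12090 in the 333 others. A further 203 injured FAP-like cells held at least 2 replication genes and no mitotic gene.

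**Figure D2:**
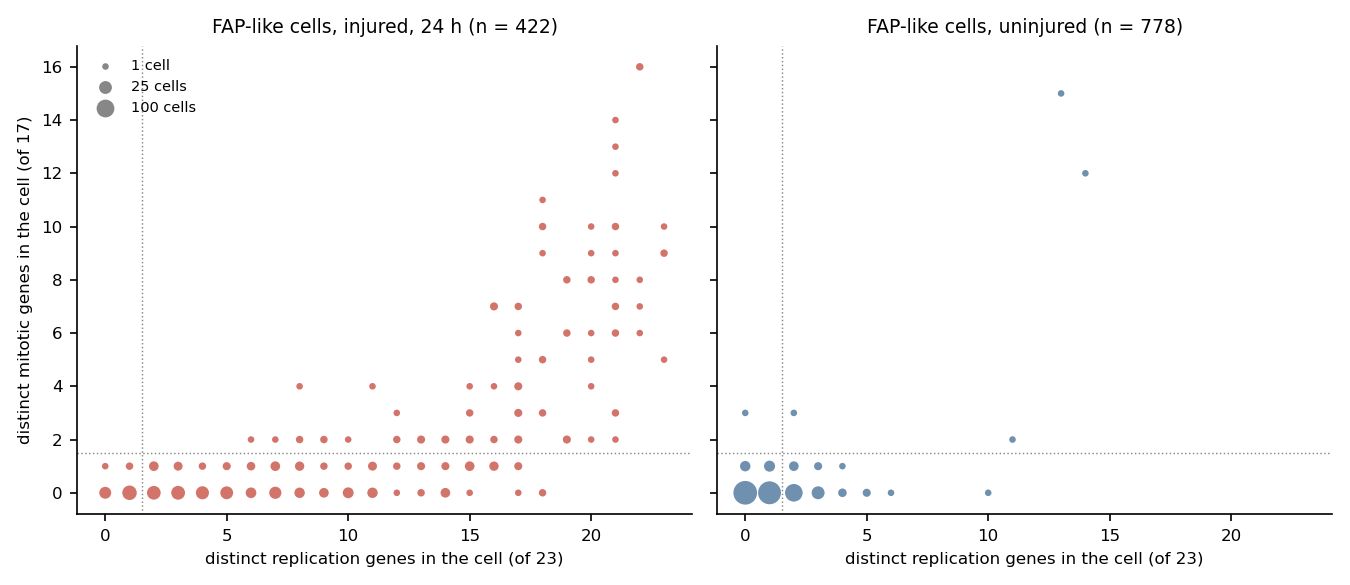
Distinct replication genes (x axis, of 23) and distinct mitotic genes (y axis, of 17) detected with all UMIs in each FAP-like cell, injured left and uninjured right; point area grows with the number of cells and dotted lines mark at least 2 genes. Above the mitotic line lie 89 of 422 injured cells, with a median of 18 replication genes, and 5 of 778 uninjured cells, of which the 2 highest are the keratin-positive cells described in the text; depth is not equal, with medians of 13680 UMIs in injured and 4002 in uninjured cells.

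Other features differed between the libraries in the same class, and their part in these results was not tested. The 12 FAP markers summed to 10670 CPM in injured and 66230 CPM in uninjured FAP-like cells, with Pdgfra at 233 CPM in injured and 315 CPM in uninjured cells, Dcn at 3004 and 17040 CPM and Col1a1 at 434 and 3088 CPM. Fewer UMIs per cell also separated the uninjured class: with every cell thinned to 1800 UMIs the replication sum was 4.69-fold higher (4.10 to 5.37) and the mitotic sum 7.08-fold higher (4.52 to 11.5) in injured FAP-like cells, and 17 of the 23 members still measured were higher and 1 lower. Macrophage transcripts were found in both: 14 of 14 macrophage markers at 255 CPM in injured and 11 of 14 at 147 CPM in uninjured FAP-like cells, against 22170 CPM in injured macrophage-like cells.

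**Figure D3:**
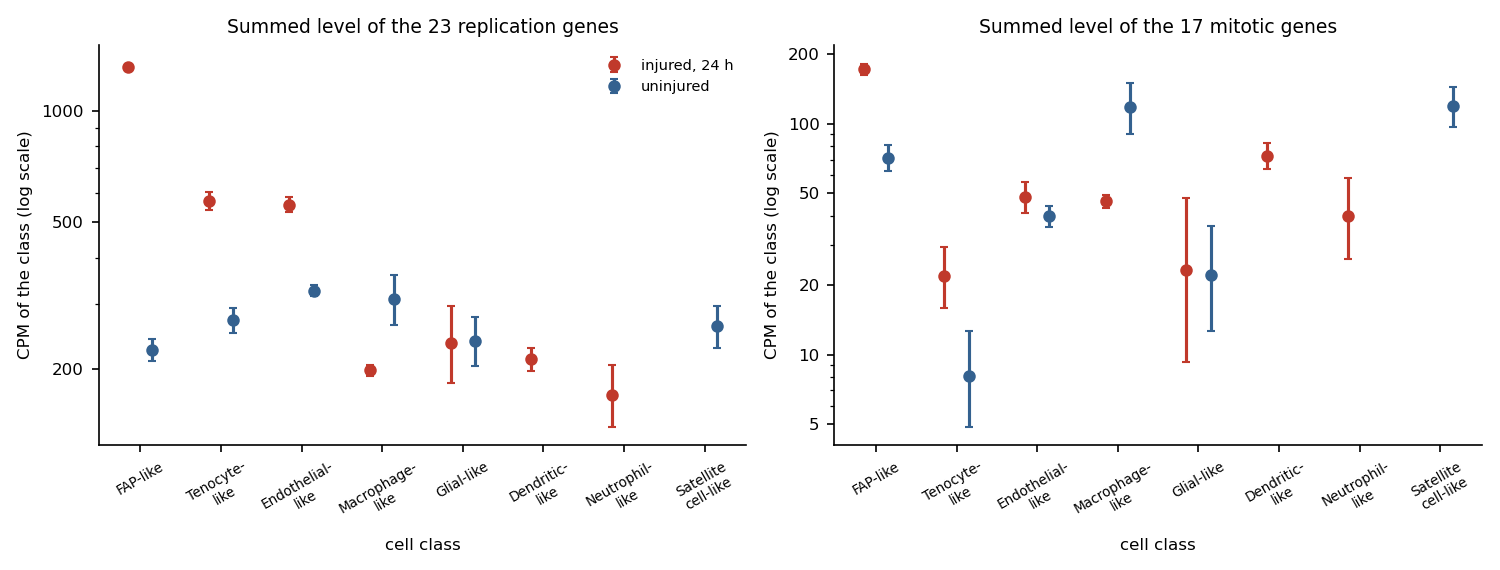
Summed CPM (log scale) of the 23 replication genes (left) and the 17 mitotic genes (right) in 8 cell classes, injured left of uninjured, with exact Poisson intervals at 95% for counting error; classes under 50 cells in a library have no point for it. Injured FAP-like cells reach 1311 CPM of replication genes, above every other point in that panel, while uninjured macrophage-like and satellite cell-like points stand at 118 and 119 CPM in the mitotic panel.

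Tenocyte-like cells, the matrix-producing cells of tendon, had higher replication genes after injury and almost no mitotic transcripts. Of 26 members measured, 16 were at least 2-fold higher and 1 lower in injured tenocyte-like cells, where 9.99% of all genes were higher and 21.7% lower. The median log2 ratio was 1.51, against -0.22 for all genes. Replication genes summed to 570 CPM (538 to 604) in injured and 272 CPM (251 to 294) in uninjured tenocyte-like cells, 2.099-fold higher (1.90 to 2.32). Among the licensing genes 7 of 9 measured were higher. Mcm3 had 63 UMIs in injured and 5 in uninjured tenocyte-like cells (14.7-fold, 5.98 to 46.9), Mcm2 had 41 and 6 (7.98-fold, 3.37 to 23), and Mcm6 had 96 and 16 (7.01-fold, 4.10 to 12.8). Tk1 had 24 and 4 UMIs (7.01-fold, 2.41 to 27.8), Rrm2 had 35 and 7 (5.84-fold, 2.56 to 15.6), and Fen1, which trims Okazaki fragments, had 33 and 6 (6.42-fold, 2.66 to 18.7). Uhrf1 had 23 UMIs in injured and 0 in uninjured cells, at least 8.95-fold higher with 3 UMIs over the class as the floor. Other replication genes were within 2-fold: Dut had 88.1 CPM in injured and 86.6 CPM in uninjured tenocyte-like cells, Tyms had 21.9 and 29.0 CPM, Slbp had 57.3 and 50.3 CPM, and Mcm7 had 27.9 and 17.1 CPM. Cells differed in depth, with medians of 11350 UMIs in injured and 4565 in uninjured tenocyte-like cells. Thinned to 1800 UMIs per cell, 10 members were still measured and none was called higher, while the replication sum was 1.70-fold higher (1.36 to 2.13). None of the 17 mitotic genes reached 20 UMIs. Together they had 44 UMIs (21.9 CPM, 15.9 to 29.4) in 153 injured and 19 UMIs (8.10 CPM, 4.88 to 12.6) in 443 uninjured cells. Thinned shares with at least 2 replication genes were 15.7% (10.3 to 22.4) in injured and 6.55% (4.43 to 9.27) in uninjured tenocyte-like cells, and for mitotic genes 0 of 153 and 0 of 443, for which 3 cells of the total give limits of 1.96% and 0.677%. Of the 9 tenocyte markers, 8 were lower in injured cells, among them Tnmd with 444 CPM in injured and 4707 CPM in uninjured cells and Cilp2 with 73.7 and 1465 CPM, while Thbs4 had 16040 and 6392 CPM, and together they summed to 20010 CPM in injured and 28780 CPM in uninjured tenocyte-like cells. Macrophage markers stood at 355 CPM (14 of 14) in injured and 157 CPM (8 of 14) in uninjured tenocyte-like cells, and the part of these differences in the values above was not tested.

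In endothelial-like cells the difference was smaller and uneven. Of 36 members measured, 16 were at least 2-fold higher and 3 lower in injured cells, where 10.6% of all genes were higher and 20.5% lower. The median log2 ratio was 0.78, against -0.21 for all genes. Replication genes summed to 557 CPM (533 to 583) in injured and 327 CPM (315 to 338) in uninjured endothelial-like cells (1.71-fold, 1.61 to 1.81), and the thinned shares with at least 2 of them were 22.7% (18.9 to 26.8) and 12.1% (10.9 to 13.4). Gins2 had 12.5 CPM in injured and 1.75 CPM in uninjured cells (7.11-fold, 3.94 to 13.5), Cdc45 was 5.17-fold higher (2.09 to 14.0), and Uhrf1 was 16.4-fold higher (6.87 to 47.4). Of the 6 helicase genes, 4 were between 2.71-fold and 2.89-fold higher, while Mcm4 and Mcm7 were within 2-fold. The clamp gene Pcna stayed within 2-fold, with 84.8 CPM in injured and 49.5 CPM in uninjured cells (1.72-fold, 1.48 to 1.99). Slbp had 75.2 and 81.4 CPM and Dut 33.8 and 29.4 CPM. Tyms, which makes thymidylate, had 63.3 CPM in injured and 21.5 CPM in uninjured cells (2.94-fold, 2.42 to 3.58). Cdc6 went the other way, with 12 UMIs in injured and 143 in uninjured endothelial-like cells, 4.61-fold lower (2.56 to 9.13). At equal depth it was found in 1 of 450 injured and 86 of 2643 uninjured cells (0.222%, 0.00563 to 1.23, and 3.25%, 2.61 to 4.003). It was found in 0 of 87 injured neutrophil-like cells. There the limit of 3.45% lies above the uninjured endothelial-like share, so the 2 cannot be told apart. Thinned, 8 of the 23 members still measured were higher in injured endothelial-like cells. Mitotic genes summed to 48.2 CPM (41.3 to 56.1) in injured and 39.7 CPM (35.7 to 44.0) in uninjured cells. These sums came from few cells: the 3 highest held 52.9% of the injured and 37.6% of the uninjured mitotic UMIs, the highest injured cell 60 and the highest uninjured cells 90 and 39, each with Pecam1 and Cdh5 UMIs. Cdk1 was 2.24-fold higher (1.27 to 3.92) on 26 and 30 UMIs, Ccnb2 3.76-fold higher (1.64 to 8.97) on 16 and 11 UMIs, and Cenpa 2.41-fold lower (1.53 to 3.97) on 22 and 137 UMIs in injured and uninjured cells. At an equal UMI minimum for both libraries the mitotic ratio of 1.22 (1.01 to 1.46) turned to 0.913 (0.749 to 1.11). Without Cenpa, the mitotic gene with the most UMIs in this class, the ratio was 1.70. The 11 endothelial markers summed to 6334 CPM in injured and 11790 CPM in uninjured cells, and 7 erythroid markers to 1793 and 473 CPM. Macrophage markers stood at 273 CPM (14 of 14) in injured and 62.5 CPM (10 of 14) in uninjured endothelial-like cells. The part of these transcripts in the values above was not tested.

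Macrophage-like cells showed the opposite direction. None of 31 members measured was at least 2-fold higher and 19 were lower in injured macrophage-like cells, where 8.56% of all genes were higher and 23.8% lower. The uninjured class held only 130 cells and 543240 UMIs, against 2456 cells and 18134474 UMIs in the injured class, so a gene with 3 uninjured UMIs already stood at 5.52 CPM, which left little room to call a low gene higher. The median log2 ratio of the members was -1.12, against -0.17 for all genes. Scaled by the median ratio over genes in place of UMI totals, 2 members were higher and 13 lower. Replication genes summed to 199 CPM (192 to 205) in injured and 309 CPM (264 to 360) in uninjured macrophage-like cells. Dut had 66 UMIs or 3.64 CPM in injured and 20 UMIs or 36.8 CPM in uninjured cells, 10.1-fold lower (5.81 to 16.9). Lig1 and Uhrf1 were 4.45-fold (1.55 to 10.5) and 5.76-fold (1.74 to 15.04) lower, on 6 and 5 uninjured UMIs. Pcna, at 61.1 CPM in injured and 60.8 CPM in uninjured cells (1.01-fold, 0.712 to 1.47), and Slbp, at 61.1 and 51.5 CPM (1.19-fold, 0.816 to 1.79), were within 2-fold. Of 18 replication genes measured 12 were lower, among them Mcm3 with 162 and 10 UMIs (2.06-fold lower, 0.970 to 3.89) and Ccne1 with 17 and 3 UMIs (5.89-fold lower, 1.11 to 20.4). Cdt1 had 200 and 3 UMIs (1.997-fold, 0.674 to 9.77). Many of these intervals include equal levels. Among the 130 uninjured cells, with all UMIs, 1 cell each held 8, 13 and 14 distinct replication genes, against a class median of 1. In the 2456 injured cells the median was also 1 and the most was 13. The part of such single cells in the calls was not tested. Mitotic genes summed to 46.1 CPM (43.0 to 49.3) in injured and 118 CPM (90.7 to 150) in uninjured cells, 0.391 times the uninjured level (0.303 to 0.513), and this ratio lay between 0.212 and 0.865 over the alternatives, but 64.1% of the 64 uninjured mitotic UMIs lay in 3 cells, the highest with 27. Ccnb2 (20 and 10 UMIs) was 16.7-fold lower (6.98 to 37.4) and Ube2c (18 and 6 UMIs) 11.1-fold lower (3.62 to 29.3) in injured than in uninjured cells.

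The mitotic UMIs of injured macrophage-like cells were mostly Cenpa, the centromeric histone, with 501 of 836. At equal depth Cenpa was found in 5.13% of injured (4.29 to 6.08) and 4.62% of uninjured macrophage-like cells (1.71 to 9.78), in 8.37% of injured dendritic-like cells and in 6.90% of injured neutrophil-like cells (2.57 to 14.4), but in 0.237% of injured FAP-like cells. It is not read here as a sign of mitosis in these classes. With all UMIs, 51 of 2456 injured macrophage-like cells held at least 2 mitotic genes and 12 of these also held at least 2 replication genes. With clusters that held at least 10 cells of each library alone, a selection made after seeing the data, 9 members were lower and the mitotic ratio was 0.678 (0.511 to 0.911). The injured macrophage-like cell with the most mitotic UMIs, 75, carried 304 Elane and 112 Prtn3 UMIs, genes of early myeloid cells of the bone marrow, and 0 Csf1r UMIs. Thinned shares with at least 2 replication genes were 3.87% (3.14 to 4.71) in injured and 7.69% (3.75 to 13.7) in uninjured macrophage-like cells. Both intervals overlap that of injured neutrophil-like cells, 2.30% (0.280 to 8.06), which give no background for the uninjured library. For mitotic genes the shares were 0.326% (0.141 to 0.641) and 1.54% (0.187 to 5.45).

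**Figure D4:**
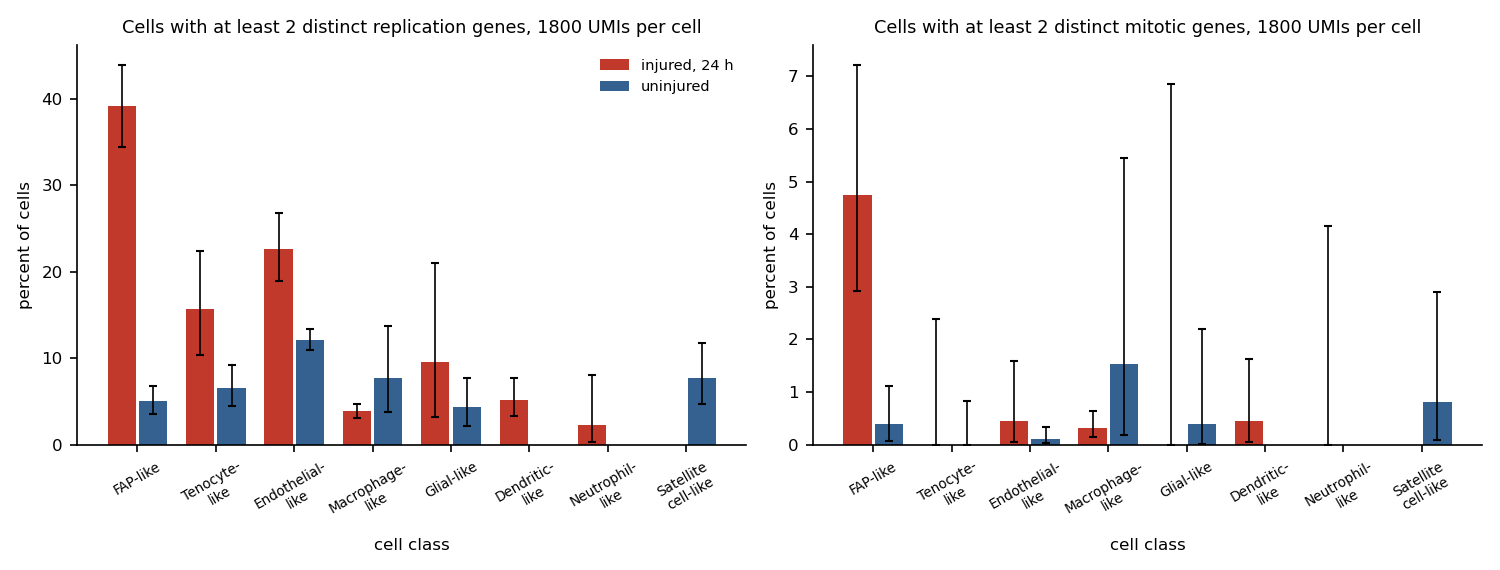
Percent of cells with at least 2 distinct replication genes (left) or mitotic genes (right) after every cell was thinned to 1800 UMIs, injured left of uninjured, with Clopper-Pearson intervals at 95%. Injured FAP-like cells reach 39.1% and 4.74%, and injured neutrophil-like cells, the background class of that library alone, stand at 2.30% and 0.

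Glial-like cells gave little signal in either direction. Only 10 members were measured, none higher and 3 lower, where 8.39% of all genes were higher and 21.6% lower. The median log2 ratio was -0.67, against -0.21 for all genes. Replication genes summed to 235 CPM (184 to 297) in 52 injured and 239 CPM (205 to 277) in 252 uninjured glial-like cells, and mitotic genes to 7 and 16 UMIs. Macrophage markers were found at 1799 CPM (14 of 14) in injured and 4204 CPM (6 of 14) in uninjured glial-like cells, and their part in these values was not tested. The 3 lower members were Ccnd2, Hmgb2 and Stmn1. Stmn1, a microtubule regulator also made by cells at rest, had 258 CPM in injured and 810 CPM in uninjured glial-like cells (3.13-fold lower, 2.47 to 4.02), and was also 2.92-fold lower in injured endothelial-like (2.33 to 3.71) and 4.22-fold lower in injured macrophage-like cells (2.55 to 6.67). The macrophage-like value depended on few uninjured cells. In the 127 uninjured macrophage-like cells with under 2 mitotic genes, Stmn1 had 7 UMIs or 13.4 CPM (5.40 to 27.7). The 2405 injured macrophage-like cells with under 2 mitotic genes had 8.59 CPM (7.28 to 10.1). Hmgb2, a chromatin protein, was within 2-fold in the 4 classes other than glial-like cells with all cells counted. The keratin-positive cells changed both calls in FAP-like cells: Hmgb2 was 1.52-fold higher in injured cells (1.33 to 1.74) with them and 2.33-fold higher (1.98 to 2.75) without them, and Stmn1 1.30-fold (1.06 to 1.60) with them and 2.86-fold higher (2.15 to 3.87) without them. In injured FAP-like cells both genes were concentrated where mitotic genes were: Stmn1 stood at 123 CPM in the 89 cells with at least 2 mitotic genes and 8.74 CPM in the 333 others, and Hmgb2 at 244 and 61.6 CPM.

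Dendritic-like, neutrophil-like, satellite cell-like and lymphatic endothelial-like cells reached 50 cells in 1 library only and were not compared. The 442 injured dendritic-like cells held 213 CPM (198 to 229) of replication and 72.7 CPM (64.0 to 82.2) of mitotic genes. The 87 injured neutrophil-like cells held 170 CPM (140 to 205) and 39.9 CPM (26.1 to 58.5). The 247 uninjured satellite cell-like cells, the stem cells of muscle, held 261 CPM (228 to 297) of replication and 119 CPM (97.4 to 144) of mitotic genes, but 1 cell held 87 of their 104 mitotic UMIs, together with 2 Pax7 UMIs. At equal depth 7.69% (4.69 to 11.7) of satellite cell-like cells held at least 2 replication genes and 0.810% (0.0982 to 2.89) at least 2 mitotic genes. The 53 uninjured lymphatic endothelial-like cells held 327 CPM (263 to 403) of replication genes and 12 mitotic UMIs.

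The early G1 genes differed in direction between genes and classes. Ccnd1, the D-type cyclin that growth factors induce, was 3.66-fold higher in injured FAP-like cells (186 CPM in injured and 50.9 CPM in uninjured, 3.13 to 4.30), 2.21-fold higher in tenocyte-like cells (62.2 and 28.1 CPM, 1.63 to 3.03) and 2.69-fold higher in endothelial-like cells (211 and 78.4 CPM, 2.42 to 2.98). In macrophage-like cells it was 5.91-fold lower (14.3 CPM in injured and 84.7 CPM in uninjured, 4.22 to 8.11), and in glial-like cells it stood at 116 and 218 CPM. Ccnd1 was thus on the same side as the replication sum in FAP-like, tenocyte-like, endothelial-like and macrophage-like cells, with no test of that pattern. Ccnd2 differed from it: it was within 2-fold in FAP-like and endothelial-like cells and lower in injured tenocyte-like (2.33-fold, 2.04 to 2.67), macrophage-like (13.1-fold, 9.13 to 18.5) and glial-like cells (3.72-fold, 2.17 to 6.83). Ccnd3 was within 2-fold everywhere except macrophage-like cells, where it had 34.7 CPM in injured and 73.6 CPM in uninjured cells (2.12-fold lower, 1.5 to 2.92). Within the injured FAP-like class Ccnd1 stood at 251 CPM in the 89 cells with at least 2 mitotic genes and 153 CPM in the 333 others, and Ccnd3 at 159 and 71.3 CPM. Ccnd2 stood at 199.8 and 171 CPM there, and Cdkn1a was lower in the 89 cells, at 85.5 and 125.5 CPM. Between the libraries Cdkn1a, the p21 inhibitor of cyclin-dependent kinases, was 2.47-fold lower in injured FAP-like cells (112 and 276 CPM, 2.24 to 2.72). In the other classes it was within 2-fold, with 127 CPM in injured and 198 CPM in uninjured tenocyte-like cells, 556 and 389 CPM in endothelial-like, 770 and 401 CPM in macrophage-like, and 616 and 799 CPM in glial-like cells.

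**Figure D5:**
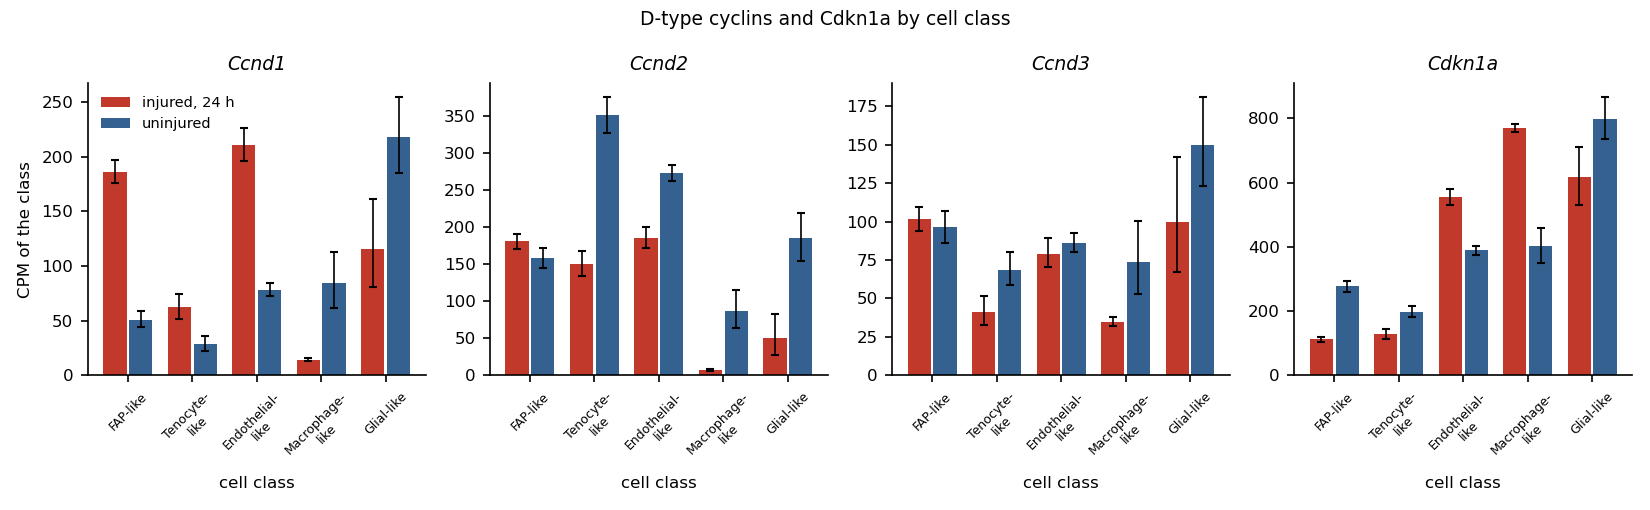
CPM of Ccnd1, Ccnd2, Ccnd3 and Cdkn1a in 5 cell classes, injured left of uninjured, with exact Poisson intervals at 95%. Ccnd1 bars are taller for injured FAP-like, tenocyte-like and endothelial-like cells and shorter for injured macrophage-like and glial-like cells; Cdkn1a stands highest in injured macrophage-like and uninjured glial-like cells.

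Other genes of the same pathways, listed by function, were read beside the members. Of 42 further replication genes, 37 were at least 2-fold higher and none lower in injured FAP-like cells, where 14.5% of all genes were higher and 29.0% lower. In tenocyte-like cells 16 of 30 measured were higher and none lower (all genes: 9.99% higher and 21.7% lower). In endothelial-like cells 10 were higher and 2 lower of 36 (all genes: 10.6% and 20.5%), and in macrophage-like cells 1 was higher and 10 lower of 31 (all genes: 8.56% and 23.8%), so that the lower count in macrophage-like cells was not far from the share of all genes. In glial-like cells none was higher and 1 lower of 10. Hells, a chromatin remodeller of S phase, was 28.5-fold higher in injured FAP-like cells (641 and 12 UMIs, 16.2 to 55.5), 33.9-fold higher in tenocyte-like cells (29 and 1 UMIs, 5.62 to 1383) and 4.76-fold higher in endothelial-like cells (2.86 to 8.08). Chaf1b, the partner of Chaf1a, was 25.8-fold higher in FAP-like cells (9.90 to 95.5), and 48.9-fold (13.4 to 407) without the keratin-positive cells. Of 44 further mitotic genes measured in FAP-like cells, 29 were higher and 3 lower, where 14.5% of all genes were higher and 29.0% lower; without the keratin-positive cells 33 of 40 measured were higher and 1, Pttg1, lower, where 15.2% of all genes were higher and 28.2% lower. In tenocyte-like cells 6 of 13 measured were higher and 1 lower, in endothelial-like cells 8 were higher and 3 lower of 26, in macrophage-like cells 1 was higher and 9 lower of 21, and in glial-like cells none was higher and 3 lower of 7, beside the shares of all genes given above for each class. Cenpm was 12.7-fold (6.01 to 32.0) higher in injured FAP-like cells, and 84.1-fold (14.9 to 3342) on 1 uninjured UMI without the keratin-positive cells. Mybl2, which encodes B-Myb, was 11.5-fold higher (2.99 to 97.9). In macrophage-like cells Lmnb1, a nuclear lamin, was 16.3-fold higher (1088 UMIs in injured and 2 in uninjured cells, 4.50 to 135). Racgap1, needed for cytokinesis, was 9.89-fold lower there (27 and 8 UMIs).

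Of the further G1 kinases and inhibitors, 3 were higher and 3 lower of 8 measured in FAP-like cells (all genes: 14.5% and 29.0%). Counts were 0 higher and 2 lower of 7 in tenocyte-like and 2 and 4 of 9 in endothelial-like cells. They were 0 and 2 of 8 in macrophage-like and 1 and 3 of 6 in glial-like cells, beside the shares given above. Without the keratin-positive cells Cdk4, Cdk2 and Cdc25a were 3.75-fold, 3.08-fold and 2.91-fold higher in injured FAP-like cells. The 2 inhibitors of the Cip/Kip family outside the members were lower in injured cells of at least 3 classes. Cdkn1c, which encodes the p57 inhibitor of resting cells, was at least 2-fold lower in all 5 classes: 24.0 CPM in injured and 238 CPM in uninjured FAP-like cells (9.89-fold, 8.34 to 11.8), 31.4 and 198 CPM in tenocyte-like (6.32-fold, 4.85 to 8.36), 51.3 and 569 CPM in endothelial-like (11.1-fold, 9.56 to 12.9), 1.93 and 40.5 CPM in macrophage-like (21.0-fold, 11.7 to 36.8) and 23.2 and 101 CPM in glial-like cells (4.37-fold, 2.02 to 11.3). It was lower both where replication genes were higher and where they were not. Cdkn1b, which encodes p27, was 5.17-fold lower in injured FAP-like cells (3.71 to 7.29), 2.997-fold lower in tenocyte-like (1.89 to 4.94) and 2.88-fold lower in endothelial-like cells (2.13 to 3.98), and stood at 20.1 and 16.6 CPM in injured and uninjured macrophage-like cells. Of the E2F and Rb family, 6 of 11 measured were higher and 3 lower in injured FAP-like cells, where 14.5% of all genes were higher and 29.0% lower, so that the lower count was near the share of all genes. E2f3 was 6.34-fold (3.09 to 15.1) and E2f8 6.41-fold higher (1.59 to 56.0), E2f8 on 24 UMIs in injured and 2 in uninjured cells. Without the keratin-positive cells 1 uninjured E2f8 UMI was left (12.2-fold, 1.98 to 500.1). Tfdp2, a partner of E2F factors, was 4.52-fold lower in injured endothelial-like cells (2.92 to 7.33) and 5.72-fold lower in macrophage-like cells (1.97 to 13.7). Of 17 genes of growth arrest and p53 response, 2 were higher and 5 lower in injured FAP-like cells (all genes: 14.5% and 29.0%). In tenocyte-like cells 3 were higher and 3 lower of 15 measured, and in endothelial-like cells 7 and 4 of 17. In macrophage-like cells 5 were higher and 4 lower of 16, and in glial-like cells 3 and 3 of 12, beside the shares of all genes given above. Among these genes Btg2, an antiproliferative gene, was at least 2-fold lower in all 5 classes, a count made after its values were seen. Its ratios ran from 6.61-fold lower (5.97 to 7.33) in FAP-like to 2.12-fold lower (1.66 to 2.74) in glial-like cells. Sesn1, a p53 target, was 5.10-fold lower in injured endothelial-like cells (3.02 to 9.29) and had 0 UMIs in injured and 41 in uninjured glial-like cells, at least 5.73-fold lower. In macrophage-like cells Mdm2, the p53 ubiquitin ligase and itself a p53 target, was 8.34-fold higher (215 CPM in injured and 25.8 CPM in uninjured cells, 4.97 to 15.3) and Plk3 was 5.01-fold higher (1.95 to 18.4).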

How the data were processed

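Single-cell RNA was profiled in 1 injured and 1 uninjured library. The authors deposited raw UMI counts per gene and barcode, made with Cell Ranger 2.1.1 on mm10, per the submitters' processing notes (annotation release and cell calling: not given in the sources used here). Kept barcodes had at least 200 genes and at most 20% mitochondrial UMIs, which removed 64 and 4 injured and 178 and 18 uninjured barcodes. Scrublet's automatic threshold marked 1 barcode per library, so the 161 injured and 249 uninjured barcodes with the highest doublet scores, numbers that follow the doublet rate usual for such loading, were left out instead. Cells were clustered with scanpy 1.11.5 in Python 3.11.15 (2000 variable genes without 181 cell cycle genes, 30 components, 15 neighbours, Leiden resolution 1 with leidenalg 0.10.2, no integration) into 30 clusters. A cluster took the class with the most markers present, a marker counting as present in at least 20% of cells and at 2 times the median cluster; fewer than 3 markers left it unnamed, and a second lineage at 70% of the first made it mixed (167 injured and 529 uninjured cells, not used). This naming rule was set after seeing the data, and class shares are not compared.

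UMIs were summed per class and library and divided by the class total (CPM). Levels carry exact Poisson intervals, ratios exact conditional binomial intervals (scipy 1.17.1), and shares Clopper-Pearson intervals at 95%; for a share of 0 the text gives 3 cells of the total as the limit. Where a library had fewer than 3 UMIs, 3 over the class served as the floor for calls. Every gene of the table was treated alike, with no p-value. The members, lists and tests were chosen with earlier results of these data known. Values in full are given for the 2 members of each role with the most UMIs and the 2 with the largest log2 ratio in each class, for all G1 genes, and for the 2 largest ratios of each other list; further genes were added after their values were seen. Alternatives covered doublets, clustering, class assignment, depth, scaling and filters. UMIs of 3' ends cannot tell overlapping genes or near-identical copies apart with certainty. In sums over a class, fewer cells in a phase and less RNA per cell cannot be told apart.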

Additional observations from a re-analysis of the deposited data

How the results depend on the processing

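With 1 library per group no replicate could be left out, and no residual spread exists. No paired analysis was possible because each group has 1 library. Depth limits the low members, above all in glial-like and uninjured macrophage-like cells. Ratios are injured over uninjured, and the cause of each shift was not tested. For FAP-like cells the count of lower members was 1 without doublet removal, with cell cycle genes kept in the clustering, by each cell's own marker score, after thinning to 1800 UMIs and without the 8 keratin-positive cells; 17 were higher after thinning. The FAP-like replication ratio was 6.49 by own marker score, 7.06 scaled by the median ratio, 4.69 thinned, 6.30 without the most abundant member and 6.29 without keratin-positive cells. The FAP-like mitotic ratio was 12.8 without doublet removal, 14.1 by own marker score, 2.03 at an equal UMI minimum, 9.22 without the 5% of cells with most UMIs, 2.94 by median ratio, 7.08 thinned, 1.53 in clusters holding both libraries and 13.1 without keratin-positive cells. In tenocyte-like cells 2 members were lower without the top 5% and when thinned, and 0 were higher when thinned; the replication ratio was 1.68 without the top 5%, 2.44 by median ratio, 1.70 thinned and 2.60 without the most abundant member, and the mitotic ratio 1.45 thinned. In endothelial-like cells 8 members were higher when thinned; the replication ratio was 1.61 without the top 5%, 1.96 by median ratio, 1.54 thinned and 1.97 without the most abundant member. The endothelial-like mitotic ratio turned to 0.913 at an equal UMI minimum and was 1.70 without the most abundant member. In macrophage-like cells 1 member was higher without doublet removal and by own marker score, and 2 by median ratio; 11 were lower by own marker score and 9 thinned or in clusters holding both libraries. The macrophage-like replication ratio was 0.756 by median ratio, and the mitotic ratio 0.212 without doublet removal, 0.865 by own marker score, 0.560 without the top 5%, 0.817 thinned, 0.228 without the most abundant member and 0.678 in clusters holding both libraries. In glial-like cells 3 members were higher with a minimum of 1 UMI and 1 in clusters holding both libraries. The glial-like replication ratio turned to 1.09 at an equal UMI minimum, 1.03 without the top 5%, 1.14 by median ratio and 1.28 in clusters holding both libraries. The glial-like mitotic ratio turned to 0.938 without the top 5% and 0.734 without the most abundant member, and was 2.82 in clusters holding both libraries. Tenocyte-like cells had no cluster with at least 10 cells of each library. The restriction to shared clusters and the removal of keratin-positive cells were added after seeing the data. For FAP-like cells that restriction kept cluster 10, where the keratin-positive cells with 168 and 36 mitotic UMIs lay. Of the other values of these kinds, 133 under planned and 27 under added alternatives kept their side and size. Scaling by the median ratio moved the median of all genes by 0.20 to 0.28 on the log2 scale and gave 33 higher and 2 lower members in FAP-like cells.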
